A study of Mus musculus with 15 samples.

Results

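Replacement histone variants are histones that are put into chromatin outside S phase, in exchange for the canonical histones made during DNA replication. The 8 genes described here are *H2afx* (H2A.X), *H2afj* (H2A.J), *H2afz* and *H2afv* (the H2A.Z proteins), *H2afy* and *H2afy2* (the macroH2A proteins), and *H3f3a* and *H3f3b* (both encoding histone H3.3). They were taken by name from the 55266 genes in the deposited counts, by summing the reads of all their annotated transcripts in GENCODE M21. Of the 8 genes, 7 passed the filter on low counts, and *H2afz* did not.

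The series used NIH3T3, a long-established mouse fibroblast line of embryonic origin, to learn which transcription the nuclear share of mTORC1 controls. mTORC1 is a kinase complex that matches cell growth to the supply of nutrients and growth factors. There were 5 groups of 3 libraries. Cells of a stable line with a doxycycline-inducible histone H2A fused to mCherry, the control, made up 4 groups: no PDGF, PDGF alone, PDGF with rapamycin, and PDGF with cycloheximide. Cells of a separate stable line with a doxycycline-inducible H2A-TerminaTOR, an inhibitor meant to act on mTORC1 in the nucleus, were measured with cycloheximide and PDGF. All groups thus carried an added, tagged histone H2A, and the cells were starved before PDGF, a growth factor for fibroblasts. Each construct is represented by its own line, so construct and line cannot be told apart. Rapamycin acts on mTORC1 wherever it is in the cell, and cycloheximide stops protein synthesis. Doses, times and the use of doxycycline in each group are not stated in the labels. Whether the 3 libraries of a group are separate cultures is not stated either, so the p-values reflect only how far these samples differ, which may be technical.

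Canonical histone genes are switched on in S phase, and their messages end in a conserved stem-loop in place of a poly(A) tail. Replacement variants are mostly made from polyadenylated messages throughout the cell cycle, also in cells that have stopped dividing. H2A.X is phosphorylated around DNA breaks, H2A.Z marks active promoters and regulatory elements, H3.3 is placed in transcribed genes by HIRA and at silent repeats by ATRX and DAXX, and macroH2A carries a large domain beside its histone fold and is found in repressed chromatin. H2A.J is a close relative of canonical H2A that builds up in senescent fibroblasts.

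*H2afx* is the member that can also use the canonical ending, so its stem-loop is shown beside those of the 3 replication-dependent core histone genes with the highest mean level among those tested that carry the motif. The capitals mark the motif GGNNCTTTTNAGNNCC, searched on the transcript strand, in GRCm38 transcripts.
H2afx (chr9:44335235-44335260, plus strand): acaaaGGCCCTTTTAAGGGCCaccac
Hist1h4i (chr13:22040961-22040986, minus strand): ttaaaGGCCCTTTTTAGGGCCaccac
Hist2h4 (chr3:96262934-96262959, minus strand): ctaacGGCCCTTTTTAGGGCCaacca
Hist1h3d (chr13:23576239-23576264, plus strand): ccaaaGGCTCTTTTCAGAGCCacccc
The *H2afx* stem-loop lay 50 bases past the last coding base, in the 3′ UTR, and the annotated transcript of 1384 bases ran on for 822 bases after it. The motif was found in 124 of 141767 transcripts (0.0875%), in 1 of the 32 transcripts of the 8 genes and in 40 of 59 core histone genes. A match to these letters is a description and does not show where a message ended.

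The files hold counts per transcript, and a read that fits several transcripts of a gene is dropped by the counting tool's default setting. What could be seen of each gene was therefore the part that belongs to a single annotated transcript. *H2afx* had 1243 such bases, 288 of them coding, *H2afy2* had 1942 with 1116 coding, and *H2afj* had 1254 with 12 coding. *H2afv* had 1114, of which 114 were coding, all in 1 exon that its other coding transcript lacks. That exon (GRCm38 chr11:6433724-6433837, minus strand) is shown because it holds all the coding sequence that could bring reads to this gene.
H2afv exon: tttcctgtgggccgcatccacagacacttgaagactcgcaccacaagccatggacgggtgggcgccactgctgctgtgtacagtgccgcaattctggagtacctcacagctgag
*H2afz*, *H3f3a* and *H3f3b* had no coding base of this kind. Levels of different genes therefore cannot be compared with each other, and only changes of 1 gene between groups are compared below.

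**Figure D1:**
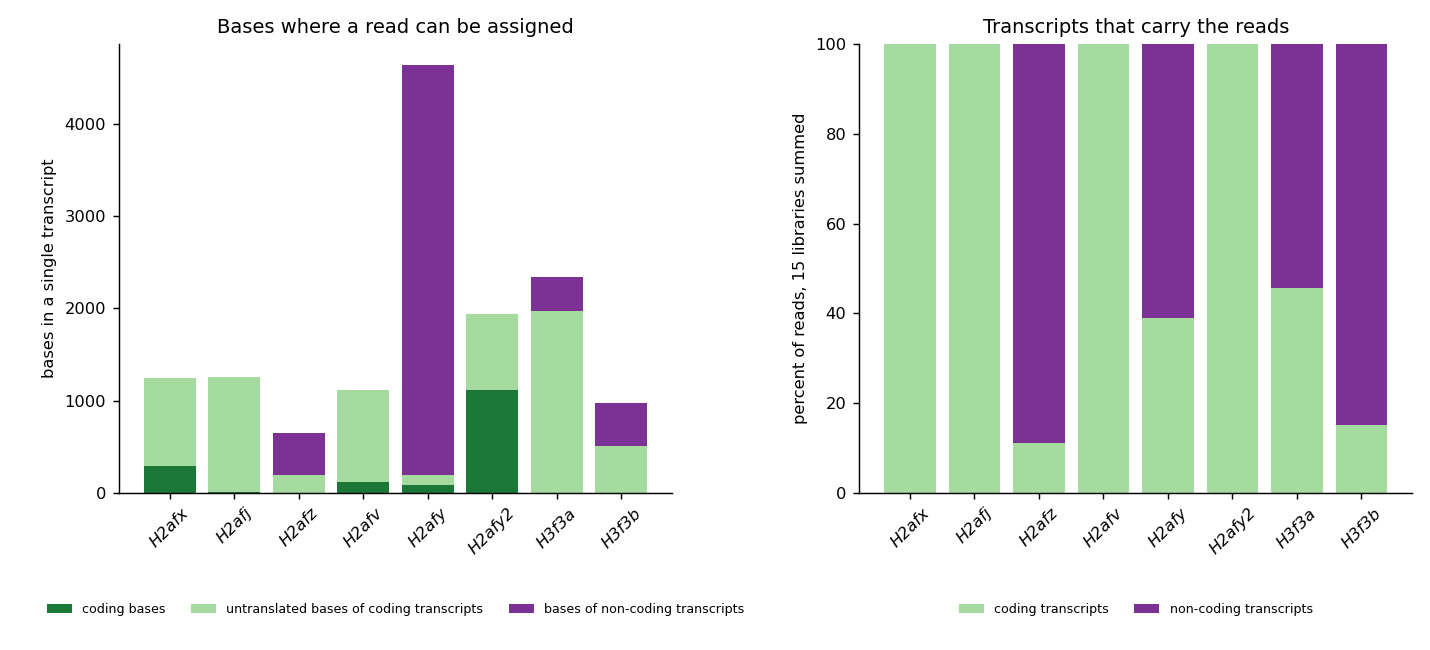
Left, the number of bases that belong to a single annotated transcript for each gene, split into coding bases, untranslated bases of coding transcripts, and bases of non-coding transcripts. Right, the percentage of each gene's reads, summed over the 15 libraries, on coding and on non-coding transcripts: all reads of *H2afx*, *H2afj*, *H2afv* and *H2afy2* were on coding transcripts, against 15.2% for *H3f3b* and 38.9% for *H2afy*.

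In 2 genes the reads came from particular stretches, which are shown for that reason. For *H3f3b*, 588 of 693 reads (84.8%) were on the non-coding transcript ENSMUST00000139378.1. Its 359 single-transcript bases (GRCm38 chr11:116024020-116024378, minus strand) lie between exons of the coding transcripts. The stretch starts with GT and ends with AG, the usual first and last bases of an intron, here in capitals.
H3f3b, first 80 bases of the stretch: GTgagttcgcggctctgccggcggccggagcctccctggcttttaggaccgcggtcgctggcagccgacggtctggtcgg
H3f3b, last 80 bases of the stretch: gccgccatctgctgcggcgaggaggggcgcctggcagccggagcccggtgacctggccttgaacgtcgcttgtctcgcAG
The other 105 reads were on the coding transcript ENSMUST00000106454.7, in untranslated bases. For *H2afy*, 230 of 592 reads were on the coding transcript ENSMUST00000045788.8, through 1 exon of 91 bases that no other transcript has. This is the exon of the macroH2A1.1 splice form, whose large domain binds ADP-ribose. The exon of 100 bases that takes its place in the other coding transcript, macroH2A1.2, is annotated in more than 1 transcript, and that coding transcript had 0 reads in every library. The pair of exclusive exons is shown on the minus strand of GRCm38.
H2afy exon of 91 bases (chr13:56088252-56088342): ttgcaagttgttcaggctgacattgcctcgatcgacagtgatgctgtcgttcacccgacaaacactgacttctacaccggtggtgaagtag
H2afy exon of 100 bases (chr13:56089758-56089857): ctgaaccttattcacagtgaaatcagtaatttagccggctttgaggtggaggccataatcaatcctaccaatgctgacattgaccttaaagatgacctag

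The depth was 3466202 to 6777780 reads per library. Fibroblast markers were present, with 10 of 10 at 10 or more reads and a summed level of 7325 to 9152 CPM (reads scaled to the library total with edgeR's TMM factors) in every library outside the rapamycin group, where it was 4710 to 5099. The macrophage marker *Adgre1*, the endothelial marker *Emcn* and the epithelial markers *Epcam*, *Krt18* and *Krt19* were at 0 reads in all libraries. However, 4 of 6 macrophage, 2 of 5 endothelial and 1 of 5 epithelial markers had 10 or more reads. With PDGF the macrophage markers *Cd14* and *Lyz2* were at 12.6 and 3.84 CPM, and the endothelial marker *Cdh5* at 3.69 CPM. Summed macrophage markers were 6.72 to 26.1 CPM, endothelial ones at most 4.73 CPM and epithelial ones at most 3.88 CPM. Mitochondrial genes took 8.69% to 12.2% of the reads without cycloheximide and 6.27% to 6.64% with it. The part of these shifts in the results below was not tested, and in bulk RNA fewer cells of a type and less RNA per cell cannot be told apart.

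**Figure D2:**
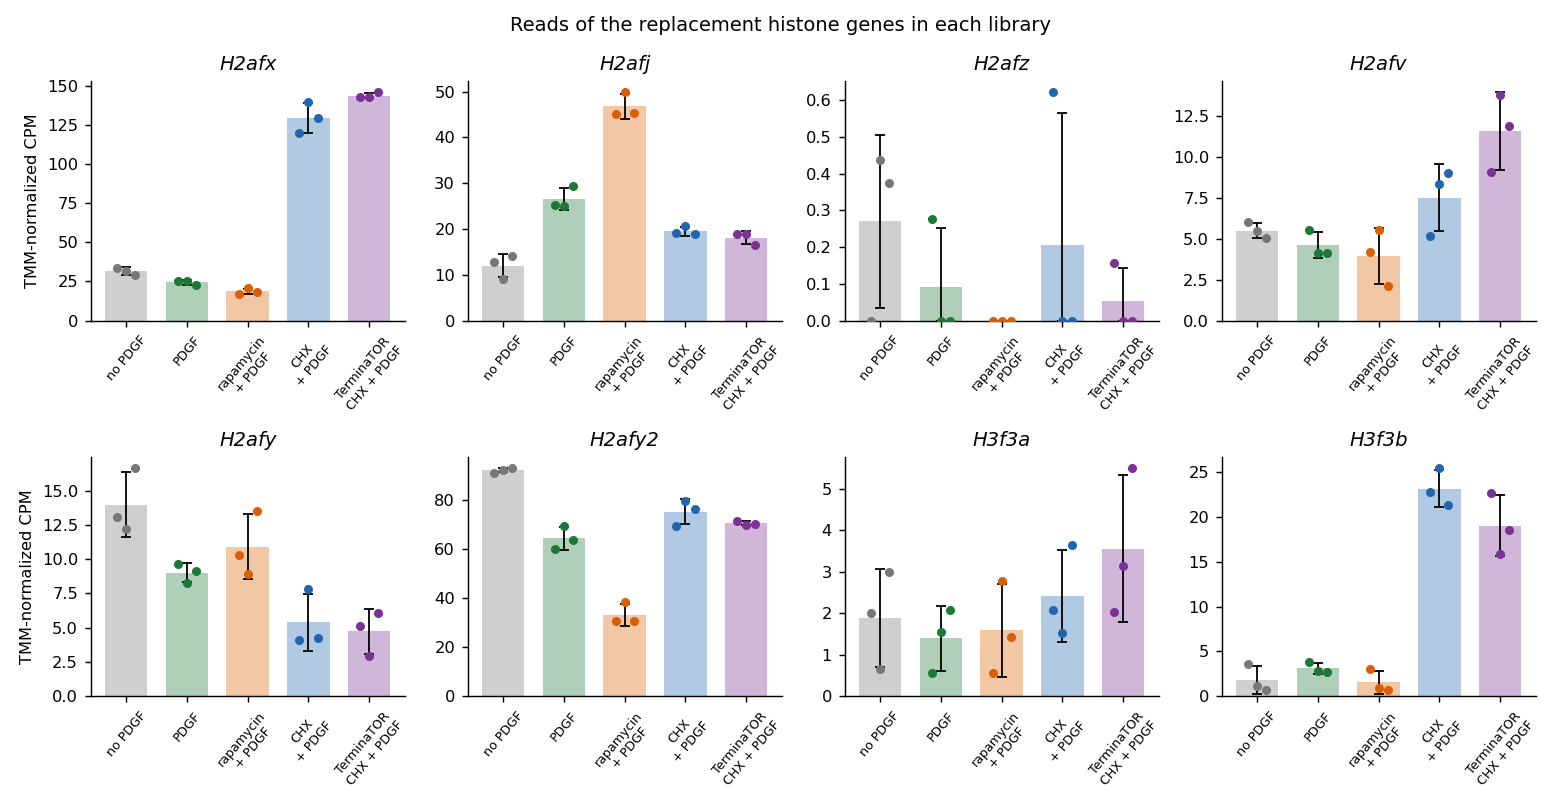
Level of each gene in TMM-normalized CPM (linear axis from 0, its own scale for each gene) in the 5 groups (CHX, cycloheximide). Points are the 3 libraries of a group, bars their mean and error lines 1 SD, stopped at 0: *H2afx* and *H3f3b* stood higher in both cycloheximide groups, *H2afj* was highest and *H2afy2* lowest with rapamycin and PDGF.

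Among the H2A variants, *H2afx* (ENSMUSG00000049932.3, GRCm38 chromosome 9, 44334694 to 44336077) had the widest range of group mean log2 levels of those tested. Its levels were 33.8, 31.8 and 29.0 CPM without PDGF and 25.3, 25.6 and 22.8 CPM with PDGF. They were 17.3, 20.6 and 18.5 CPM with rapamycin and PDGF. The control cells with cycloheximide and PDGF gave 120, 139 and 129 CPM, and the TerminaTOR cells 143, 143 and 146 CPM. All 6 cycloheximide libraries lay above the 9 others, and the groups did not overlap in any of the 4 main comparisons. Groups did not overlap for 46.2% of all genes tested with PDGF, 40.9% with rapamycin, 50.6% with cycloheximide and 23.7% with TerminaTOR.

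With PDGF, *H2afx* fell by 0.37 ± 0.13 on the log2 scale against cells without it (24.6 ± 1.55 against 31.5 ± 2.42 CPM, SD, n = 3, edgeR adjusted p = 0.0182). Rapamycin with PDGF lowered it by a further 0.38 ± 0.14 on the log2 scale (18.8 ± 1.69 CPM, edgeR adjusted p = 0.0329). The PDGF call was lost without replicate 1 of the cells without PDGF or replicate 3 of the PDGF cells (edgeR adjusted p up to 0.118), and without the filter on low counts (0.0596). The rapamycin call was lost in 4 of the 6 fits that left out a library (edgeR adjusted p up to 0.113), and both calls were lost with limma-voom and in a fit of the compared groups alone. Across both steps together, rapamycin with PDGF against no PDGF, the gene was 1.68-fold lower (edgeR adjusted p = 2.47e-06), in a comparison that called 53.3% of all genes.

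Cycloheximide with PDGF raised *H2afx* 5.28-fold over PDGF (log2 change 2.40 ± 0.12, edgeR adjusted p = 5.42e-29). In TerminaTOR cells it was 144 ± 1.75 CPM against 129 ± 9.84 CPM in control cells, a log2 difference of 0.15 with a 95% interval of -0.04 to 0.34 (edgeR adjusted p = 0.454). The difference did not pass the test although the 3 libraries of each group did not overlap, which was the case for 23.7% of all genes in that comparison.

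With cycloheximide, the log2 change of *H2afx* was smaller than that of most replication-dependent core histone genes. Of the 59 core genes 34 were tested, and 33 of them rose and none fell, where 21% of all genes rose and 19.6% fell. Their median log2 change was 4.20, or 4.02 with genes at 0 reads in a group set to the bound that 3 reads over the group allow, and 28 of the 34 lay above *H2afx* and 6 below it. The filter on low counts ran over all 5 groups, so a core gene could pass through its cycloheximide reads alone. *Hist1h2ah*, for example, had 0 reads with PDGF and 149 in control cells with cycloheximide. The choice of genes tested thus favoured rises with cycloheximide, and their share is no independent support for a rise. In the TerminaTOR comparison 5 of 34 core genes fell and none rose (2.57% and 2.35% of all genes), with a median of -0.45 against 0.00 for all genes, and *H2afx* lay above 32 of the 34. *Hist1h3d*, which carries the motif shown above, fell by 0.70 ± 0.15 on the log2 scale there (edgeR adjusted p = 0.000700). With rapamycin 8 of 34 fell and none rose (16.1% and 16.3% of all genes), and with PDGF 4 rose and 1 fell (20.1% and 16.9%). Of the 34, 8 had 0 reads in a group of the rapamycin comparison and 2 in a group of the PDGF comparison. Reads of core histone genes may be split between near-identical copies. Whether the libraries were made from polyadenylated RNA alone is not given here, and such a choice could miss messages that end in the stem-loop. These positions are descriptions with no test against *H2afx*.

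**Figure D3:**
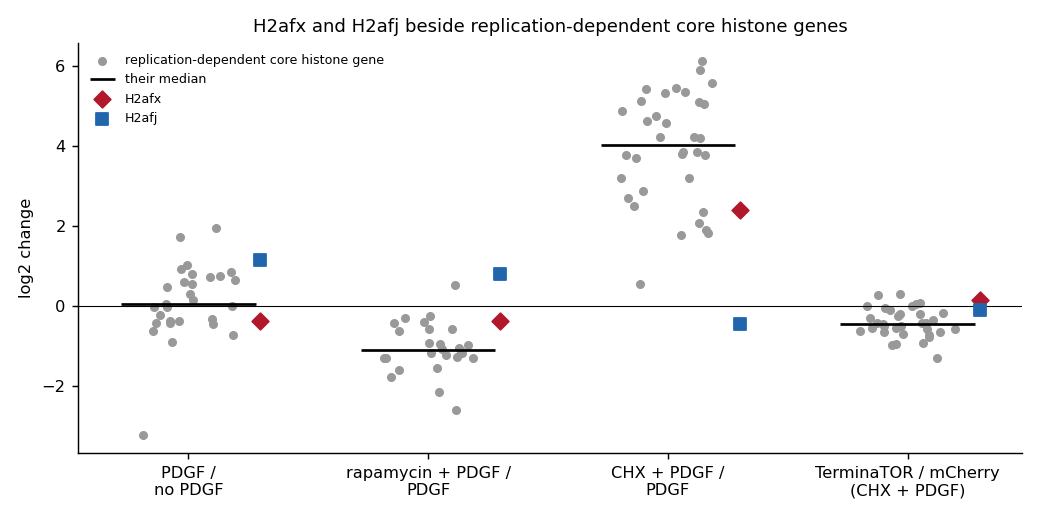
Log2 change of each replication-dependent core histone gene with a value (grey points, black line at their median) in 4 comparisons, with *H2afx* (red diamond) and *H2afj* (blue square); CHX is cycloheximide. Genes at 0 reads in a group are drawn at the bound that 3 reads over the group allow and those with at most 3 reads in both groups are left out: with cycloheximide *H2afx* rose by 2.40 while the core median was 4.02 and *H2afj* fell by 0.46.

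*H2afj* (ENSMUSG00000060032.6, chromosome 6, 136808244 to 136810074) rose at both steps at which *H2afx* fell. Its levels were 12.7, 9.16 and 14.0 CPM without PDGF, 25.3, 25.1 and 29.4 CPM with PDGF, and 45.1, 49.8 and 45.4 CPM with rapamycin and PDGF. These 3 groups did not overlap, as for 46.2% of all genes with PDGF and 40.9% with rapamycin. PDGF raised it 2.21-fold (log2 change 1.15 ± 0.18, edgeR adjusted p = 1.74e-07), and rapamycin with PDGF raised it a further 1.75-fold (log2 change 0.81 ± 0.16, edgeR adjusted p = 3.72e-05). Rapamycin with PDGF against no PDGF was a 3.87-fold rise (edgeR adjusted p = 3.91e-16). Both single steps passed in every fit that left out a library, with the highest adjusted p at 0.000756.

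With cycloheximide and PDGF *H2afj* was at 19.0, 20.7 and 18.8 CPM, below all PDGF libraries, and in TerminaTOR cells at 18.9, 18.9 and 16.5 CPM. Of all genes, 50.6% did not overlap between PDGF cells and control cells with cycloheximide. *H2afj* fell by 0.46 ± 0.17 on the log2 scale against PDGF (edgeR adjusted p = 0.0272). It was 1.61-fold above the cells without PDGF (edgeR adjusted p = 0.00118), where 47.4% of all genes were called. No group had cycloheximide without PDGF, so the parts of PDGF and cycloheximide in that comparison cannot be told apart. The fall against PDGF was not called without replicate 3 of the PDGF cells, or without replicate 1 or 3 of the control cells with cycloheximide (edgeR adjusted p up to 0.147), nor without the filter on low counts (0.0725). TerminaTOR and control cells differed by -0.10 on the log2 scale, with a 95% interval of -0.45 to 0.26 (edgeR adjusted p = 0.850).

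The promoter of *H2afj* is shown because this gene rose at both of those steps. These are 240 of the 250 RefSeq bases before its start (GRCm38.p6, chr6:136807998-136808237, plus strand), with CCAAT boxes (CCAAT, on either strand) and SP/KLF sites (GGGCGG, on either strand) in capitals.
H2afj promoter: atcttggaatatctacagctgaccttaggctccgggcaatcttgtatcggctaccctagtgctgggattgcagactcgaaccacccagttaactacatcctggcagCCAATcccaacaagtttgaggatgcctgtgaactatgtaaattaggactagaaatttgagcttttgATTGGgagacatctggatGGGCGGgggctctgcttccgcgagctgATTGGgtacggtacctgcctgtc
The CCAAT boxes start 144, 78 and 33 bases before the start site and the SP/KLF site in the printed stretch 60 bases before it. Another SP/KLF site starts 8 bases before the start site, in the bases not printed. RefSeq promoters matched 7 of the 8 genes. CCAAT was found in those of *H2afz*, *H2afv*, *H2afj*, *H3f3a* and *H3f3b*, and in 33.8% of all 32851 promoters of 250 bases. GGGCGG was found in those of *H2afy*, *H2afz*, *H2afv*, *H2afj* and *H3f3a* (32.7% of all), TATAAA in that of *H3f3b* (12.4%), and CACGTG in that of *H2afz* (6.02%). None of the 7 held TGACGTCA (1.55%), TGANTCA (6.75%), TTTNGCGC (1.13%) or a CArG box (1.47%). The motifs were searched on both strands, and a match or its absence in this window says nothing of a factor's binding.

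Of the H2A.Z genes, *H2afz* (chromosome 3, 137864487 to 137866922) was all but invisible in these counts. It had 9 reads in all, 0, 2 and 2 without PDGF, 1, 0 and 0 with PDGF, 3, 0 and 0 in control cells with cycloheximide, 1, 0 and 0 in TerminaTOR cells, and none with rapamycin. A count of 0 allows up to 3 reads. In the libraries with 0 reads this is 0.538 to 0.866 on the CPM scale, taken over the library totals, and it covers counting error only. None of its single-transcript bases is coding, so no statement on its expression can be drawn from these counts.

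*H2afv* (ENSMUSG00000041126.16, chromosome 11, 6427229 to 6444443) gave 5.50 ± 0.475 CPM without PDGF, 4.60 ± 0.790 CPM with PDGF and 3.95 ± 1.71 CPM with rapamycin and PDGF (SD, n = 3), groups that overlap. No comparison of these passed the test. Control cells with cycloheximide and PDGF gave 5.17, 8.32 and 9.03 CPM and TerminaTOR cells 9.06, 13.8 and 11.9 CPM, with no overlap between them, as for 23.7% of all genes. The log2 difference between TerminaTOR and control cells was 0.61 ± 0.29, with a 95% interval of 0.03 to 1.19, and it did not pass after adjustment (edgeR adjusted p = 0.265). Cycloheximide with PDGF against PDGF gave a log2 difference of 0.71 ± 0.33 (edgeR adjusted p = 0.0753), which was called without replicate 1 of the control cells with cycloheximide (0.91, edgeR adjusted p = 0.0369).

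Of the macroH2A genes, *H2afy2* (macroH2A2, ENSMUSG00000020086.6, chromosome 10, 61738665 to 61784147) fell at both steps at which *H2afj* rose. Its levels were 91.4, 92.5 and 93.1 CPM without PDGF, 60.0, 69.5 and 64.0 CPM with PDGF, and 30.9, 38.4 and 30.6 CPM with rapamycin and PDGF. The groups did not overlap, which was also so for 46.2% of all genes with PDGF and 40.9% with rapamycin. The fall with PDGF was 0.52 ± 0.10 on the log2 scale (edgeR adjusted p = 3.84e-05) and that with rapamycin 0.96 ± 0.12 (1.95-fold lower, edgeR adjusted p = 4.05e-10). From no PDGF to rapamycin with PDGF the gene was 2.78-fold lower (edgeR adjusted p = 1.27e-18). Both single steps passed in each fit without a library (adjusted p up to 0.00139). Antisense *Aifm2* shares 233 exonic bases with *H2afy2* and had 20 to 143 reads per library, and the shared bases are not among the 1942 single-transcript bases given above.

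With cycloheximide *H2afy2* was at 75.4 ± 5.22 CPM in control cells and 70.8 ± 0.786 CPM in TerminaTOR cells. Against PDGF the log2 difference was 0.22 (edgeR adjusted p = 0.0894) and between TerminaTOR and control cells -0.09, with a 95% interval of -0.30 to 0.12 (edgeR adjusted p = 0.756). Over the 15 libraries the log2 levels of *H2afy2* and *H2afj* had a Pearson r of -0.92, a description of libraries that share their groups and scaling.

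*H2afy* (ENSMUSG00000015937.15, chromosome 13, 56073619 to 56136361) gave 13.1, 12.2 and 16.6 CPM without PDGF and 9.64, 8.27 and 9.11 CPM with PDGF. These groups did not overlap, as for 46.2% of all genes, and the log2 difference of -0.64 ± 0.26 fell just short of the threshold (edgeR adjusted p = 0.0510). It was called under scaling by library size alone (0.00481), with limma-voom (0.0354) and in a fit of the compared groups alone (0.0333). With rapamycin it was 10.3, 8.92 and 13.5 CPM, overlapping the PDGF libraries (edgeR adjusted p = 0.469). With cycloheximide it was 4.14, 7.82 and 4.23 CPM in control and 5.15, 2.95 and 6.10 CPM in TerminaTOR cells.

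The fall of *H2afy* with cycloheximide against PDGF was 0.77 ± 0.30 on the log2 scale (edgeR adjusted p = 0.0326). It was not called without replicate 1 or 3 of the PDGF cells or of the control cells with cycloheximide (edgeR adjusted p up to 0.154), nor without the filter on low counts (0.0771). When single transcripts were tested, the reads of the macroH2A1.1 exon shown above had a log2 difference of -0.32 (edgeR adjusted p = 0.639). Those of the non-coding transcript ENSMUST00000139511.7 fell by 2.15 on the log2 scale, with 0.626 ± 0.320 against 2.94 ± 0.692 CPM (edgeR adjusted p = 0.00318), where 18% of the 13116 transcripts tested fell. The change of this transcript against the rest of the gene did not pass its own test (edgeR adjusted p = 0.154), which called 4.25% of transcripts. The macroH2A1.1 exon was not called in any of the 4 main comparisons, in which 33%, 27.2%, 37.1% and 3.61% of all transcripts were called.

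Of the H3.3 genes, *H3f3b* (ENSMUSG00000016559.14, chromosome 11, 116021912 to 116027962) stood apart with cycloheximide. It was at 3.63, 1.09 and 0.748 CPM without PDGF, 3.86, 2.84 and 2.69 CPM with PDGF, and 3.06, 0.923 and 0.713 CPM with rapamycin and PDGF. Control cells with cycloheximide gave 22.8, 25.5 and 21.3 CPM and TerminaTOR cells 22.6, 15.9 and 18.6 CPM. All 6 cycloheximide libraries were above the other 9, and the 3 groups without cycloheximide overlapped. Between PDGF cells and control cells with cycloheximide, 50.6% of all genes did not overlap. The share of all genes for 6 libraries against 9 was not taken.

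Cycloheximide with PDGF raised *H3f3b* 7.42-fold over PDGF (log2 change 2.89 ± 0.31, edgeR adjusted p = 5.92e-12). The rise was seen on both transcripts that carry its reads: 7.63-fold for the intronic stretch shown above (edgeR adjusted p = 7.35e-08) and 6.89-fold for the untranslated bases of ENSMUST00000106454.7 (edgeR adjusted p = 0.00256), where 19.1% of all transcripts tested rose. The difference between these 2 transcripts did not pass its test (edgeR adjusted p = 1.00). Of all 2852 retained-intron transcripts tested, 7.89% rose with cycloheximide and 26.1% fell, with a median log2 change of -0.46, and of 854 transcripts of the class that holds the *H3f3b* stretch 9.02% rose and 17.6% fell. None of these reads was in coding bases. Coding messages were seen only through the untranslated bases of ENSMUST00000106454.7, and the other coding transcript, ENSMUST00000016703.7, had 0 single-transcript bases. The coding message as a whole was thus not measured.

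In the PDGF and rapamycin comparisons, the values of *H3f3b* depended on single libraries. The log2 change was 0.72 with PDGF (edgeR adjusted p = 0.195) and 1.73 without replicate 1 of the cells without PDGF (0.00679). The log2 change with rapamycin was -0.99 (edgeR adjusted p = 0.112) and -1.91 without replicate 1 of that group (0.0112). TerminaTOR and control cells differed by -0.27 on the log2 scale, with a 95% interval of -0.76 to 0.22 (edgeR adjusted p = 0.643).

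*H3f3a* (ENSMUSG00000060743.12, chromosome 1, 180800832 to 180813943) had 147 reads in all, 80 of them on a retained-intron transcript, with means of 1.39 to 3.56 CPM per group. The groups overlapped in the 4 main comparisons and none passed the test. The 95% intervals of the log2 difference were -1.66 to 0.84 with PDGF, -1.24 to 1.47 with rapamycin, -0.47 to 1.99 with cycloheximide and -0.63 to 1.57 for TerminaTOR against control.

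**Figure D4:**
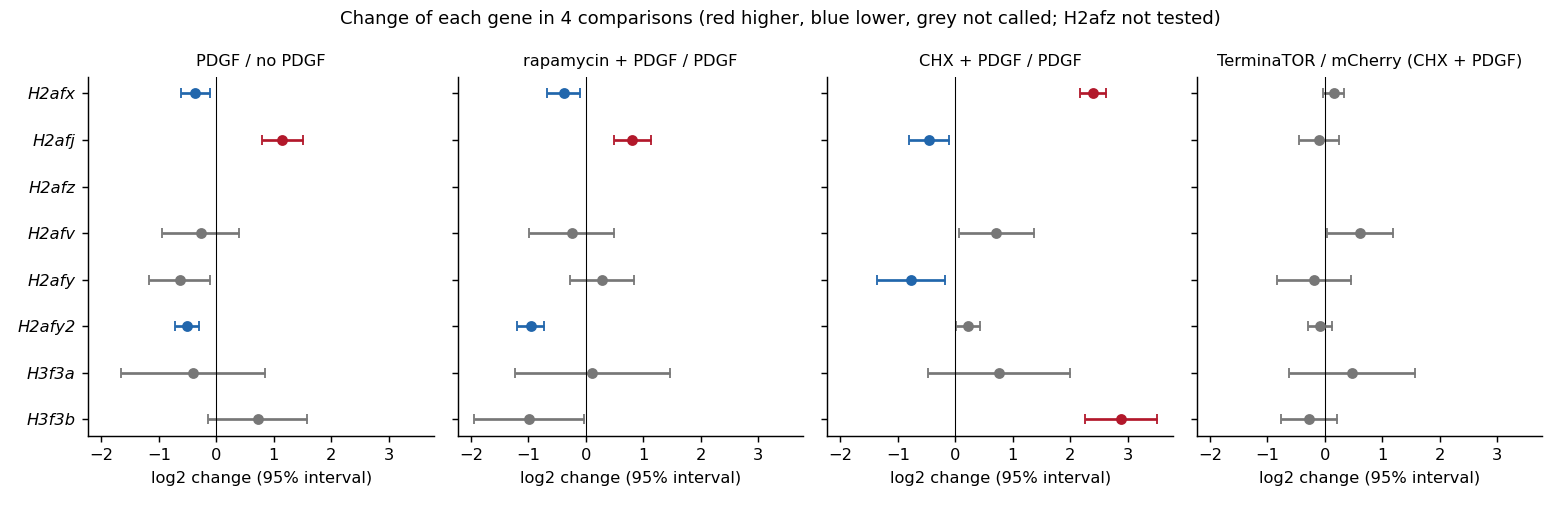
Log2 change of each gene (points) with its 95% interval (lines) in 4 comparisons (CHX, cycloheximide) from edgeR's fit over all libraries, red where higher and blue where lower at an adjusted p under 0.05, grey otherwise. *H2afj* and *H2afy2* moved in opposite directions with PDGF and with rapamycin, *H2afx* and *H3f3b* rose with cycloheximide, and none of these genes was called between TerminaTOR and control (4.92% of all genes were).

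Counted over the 7 genes tested, 1 rose and 2 fell with PDGF, where 37% of all 10603 genes tested were called (20.1% higher, 16.9% lower). With rapamycin 1 rose and 2 fell against a background of 32.3% (16.3% higher, 16.1% lower), and with cycloheximide 2 rose and 2 fell against 40.6% (21% and 19.6%). The shares among the 7 were thus near those of all genes. With TerminaTOR none was called by edgeR, DESeq2 or limma-voom, where edgeR called 4.92% of all genes. At an unadjusted p under 0.05, edgeR's fit across all genes gave 1 of the 7, *H2afv*. The share of all genes at that looser cut-off is not given here, so whether 1 of 7 exceeds it was not tested. With scaling by library size alone, the higher share of all calls went from 54.3% to 30.7% for PDGF, from 50.3% to 35.7% for rapamycin, from 51.8% to 39.0% for cycloheximide and from 47.7% to 60.5% for TerminaTOR. The difference between the rapamycin and TerminaTOR effects was called for *H2afx*, *H2afy2* and *H2afj*, 1 higher and 2 lower, where it was called for 24% of all genes. The median log2 changes of the 7 genes were -0.37, -0.24, 0.71 and -0.09 in the 4 comparisons, against -0.01, 0.02, 0.01 and 0.00 for all genes.

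The partners of these histones were described from fixed lists. For *H2afx*, 13 of 14 genes that phosphorylate, dephosphorylate or read H2A.X were tested. Of these, 6 fell and none rose with PDGF (median log2 change -0.32), where 16.9% of all genes fell and 20.1% rose. With rapamycin 1 rose and 4 fell (16.3% and 16.1% of all genes). With cycloheximide 5 rose and none fell (21% and 19.6% of all genes), with a median of 0.33, or 0.37 without *Eya1*, at 0 reads in both groups. *Ppm1d*, the Wip1 phosphatase that removes the damage mark from H2A.X, fell by 0.50 on the log2 scale with PDGF (edgeR adjusted p = 1.21e-05) and rose 1.91-fold with cycloheximide (edgeR adjusted p = 1.43e-13). *Topbp1*, a checkpoint protein, was 1.66-fold lower with rapamycin, from 63.9 to 38.3 CPM, and *Ppp4r2*, a subunit of a phosphatase of H2A.X, was 1.44-fold higher. *Rnf8*, a ubiquitin ligase that acts at marked chromatin, rose 1.91-fold with cycloheximide (edgeR adjusted p = 0.00700). *Eya1*, a tyrosine phosphatase of H2A.X, had 259 reads in the TerminaTOR line and 0 in control cells with cycloheximide, at least 81.9-fold higher against a floor of 3 reads over the group. It had 6 reads without PDGF and 0 with PDGF, and these few reads make up 1 of the 6 falls with PDGF. Its TerminaTOR reads carried it past the filter on low counts, so its being tested favoured a difference there. With TerminaTOR *Eya1* was the 1 gene of the 13 that rose, and none fell (2.35% and 2.57% of all genes).

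For the H2A.Z genes, 20 of 32 genes of the SRCAP, p400-TIP60 and INO80 remodellers and ANP32E were tested. With PDGF 6 rose and 2 fell, where 20.1% of all genes rose and 16.9% fell. With rapamycin 2 rose and 1 fell (16.3% and 16.1% of all genes), with cycloheximide 3 rose and 4 fell (21% and 19.6%), and with TerminaTOR none was called (4.92% in either direction). *Ino80*, the ATPase of the INO80 complex, rose 2.23-fold with PDGF, from 169 ± 8.32 to 377 ± 2.14 CPM (edgeR adjusted p = 3.10e-26). *Epc1*, a subunit of TIP60, rose 2.42-fold with PDGF and was 2.60-fold lower with rapamycin, at levels under 5 CPM. *Vps72*, the H2A.Z-binding subunit of SRCAP, was 2.16-fold lower with cycloheximide (edgeR adjusted p = 0.00852), *Ino80e* 1.97-fold lower, and *Mbtd1*, of TIP60, 1.46-fold higher with rapamycin (edgeR adjusted p = 0.0402).

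For macroH2A, 3 of 6 macrodomain and PARP genes were tested. With PDGF 1 fell, with rapamycin 2 fell and with cycloheximide 1 rose (16.9%, 16.1% and 21% of all genes). *Parp1*, which makes the ADP-ribose polymer, moved as *H2afy2* did at 2 steps, falling by 0.81 on the log2 scale with PDGF (edgeR adjusted p = 7.71e-07) and by 1.05 with rapamycin (edgeR adjusted p = 2.17e-07). It rose 1.75-fold with cycloheximide (edgeR adjusted p = 9.79e-07), where *H2afy2* was not called. *Chd1l*, a remodeller that binds the polymer, was 1.98-fold lower with rapamycin (edgeR adjusted p = 0.0494), and none of the 3 was called with TerminaTOR (4.92% of all genes).

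For H3.3, 5 of 8 deposition genes were tested. None was called with PDGF or TerminaTOR (37% and 4.92% of all genes), 1 fell with rapamycin (16.1%) and 2 rose with cycloheximide (21%), with a median log2 change of 0.13 there. *Cabin1*, of the HIRA complex, was 1.46-fold lower with rapamycin (140 ± 5.83 against 204 ± 11.5 CPM, edgeR adjusted p = 6.52e-09) and 1.18-fold higher with cycloheximide. *Ubn1*, of the same complex, rose 1.92-fold with cycloheximide (edgeR adjusted p = 0.0225), from 4.09 to 7.73 CPM.

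The 3 genes with the widest range over the 5 group means were *H3f3b* (3.73 on the log2 scale), *H2afx* (2.91) and *H2afj* (1.95), and the genes most like each were ranked by Pearson correlation of log2 CPM over the 15 libraries among 4885 genes. These libraries share their groups, depth and scaling, and the correlations are descriptions. Most like *H2afx* were *Hexim1*, an inhibitor of the elongation factor P-TEFb (r = 0.99), *Zfp654* (0.99) and *Arid4a* (0.99). *Hexim1* was at 158, 95.4 and 50.9 CPM without PDGF, with PDGF and with rapamycin, and at 794 and 863 CPM in the cycloheximide groups of control and TerminaTOR cells. Most like *H3f3b* were the core histone gene *Hist1h4i* (0.96), the repressor gene *Erf* (0.95) and the acetyltransferase gene *Ep300* (0.95). *Hist1h4i* went from 5.97 CPM with PDGF to 240 CPM in control and 154 CPM in TerminaTOR cells with cycloheximide. It was at 3.37 CPM without PDGF and 3.17 CPM with rapamycin and PDGF. The ranking asked for a mean log2 CPM of at least 3, which *Hist1h4i* reached only through its cycloheximide groups, so its place favoured such a rise. Most like *H2afj* were the kinase genes *Dgkh* (0.98) and *Cdk17* (0.98) and *Tnc*, the matrix protein tenascin C (0.97). *Tnc* was at 2.16 CPM without PDGF, 48.6 CPM with PDGF and 197 CPM with rapamycin and PDGF.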

How the data were processed

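The deposited files, 1 per library, give raw read counts for mouse transcripts, with no normalization by the authors. Alignment and counting tools in the submitters' processing notes are HISAT2 2.2.1 and HTSeq 0.9.1, beside R 4.1.0. The build listed there is the human hg38, although the identifiers are mouse transcripts. For mouse build, annotation and strand setting the sources used here give nothing. Of 142446 identifiers 141536 matched GENCODE M21 (GRCm38), and the other 910, with 0.0309% of counts, were dropped. Sums per gene were tested with edgeR 4.0.16 (R 4.3.3, limma 3.58.1) by the quasi-likelihood F test. The fit used filterByExpr, TMM scaling and all 15 libraries, which leaves 10 residual degrees of freedom. P-values were adjusted by Benjamini-Hochberg over 10603 genes, and a call is an adjusted p under 0.05. Changes are log2 with an approximate SE, the absolute change over the square root of F, from which the 95% intervals were made. It may understate the error of genes with few reads. Transcripts were tested the same way (13116 tested). Libraries were not paired by replicate number, since 0 of 12 same-numbered pairs correlated over 0.1, a cut-off that a weak pairing could miss.

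The 8 genes, the partner lists and the tests were chosen with earlier results of these data known. By the rule for named genes, all 8 were named. From each list up to 2 called genes with the largest change per comparison were named, at a mean log2 CPM of at least 1. Genes of like pattern, 3 for each of the 3 members of widest range, had a mean log2 CPM of at least 3. Alternatives were other scalings (DESeq2 1.42.0 size factors, library size), no filter, DESeq2, limma-voom, the compared groups alone, a replicate block, leaving out each library, and single transcripts. Protein sequences were not used here. Sequences are from GENCODE transcripts and RefSeq promoters (GRCm38.p6).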

Additional observations from a re-analysis of the deposited data

Results flagged for a closer look

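In 3 genes the effect of rapamycin (with PDGF, against PDGF) differed from the effect of TerminaTOR (against control, both with cycloheximide and PDGF) by edgeR's test of the difference itself. That test called 24% of all genes, 11.6% higher and 12.4% lower. The difference, rapamycin minus TerminaTOR on the log2 scale, was -0.54 ± 0.17 SE for *H2afx* (adjusted p = 0.0155), made of -0.38 with rapamycin and 0.15 with TerminaTOR. It was -0.87 ± 0.16 for *H2afy2* (adjusted p = 1.12e-05), made of -0.96 and -0.09, and 0.90 ± 0.24 for *H2afj* (adjusted p = 0.00256), made of 0.81 and -0.10. The difference for *H2afx* was not called without replicate 1 of the control cells with cycloheximide (adjusted p = 0.0524), while those for *H2afy2* and *H2afj* passed in each fit that left out a library. The 2 effects were measured in different settings, without and with cycloheximide, so inhibitor and setting cannot be told apart. For the other 4 genes tested the difference did not pass, with 95% intervals of -0.37 to 1.32 for *H2afy*, -1.80 to 0.08 for *H2afv*, -2.11 to 1.40 for *H3f3a* and -1.80 to 0.36 for *H3f3b*.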

How the results depend on the processing

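Of 496 values of member log2 changes under alternatives, 458 kept direction and side of the threshold, 22 lost the call, 6 gained it and 10 changed sign, none of them called. Library size alone turned *H3f3a* with rapamycin to -0.0129 and gave 1379 higher and 3111 lower among all genes with PDGF, where all genes' median moved to -0.26 (-0.10 with rapamycin, -0.13 with cycloheximide). The other sign changes came from leaving out a library: *H3f3a* ranged from -0.824 to 0.0830 with PDGF, -0.490 to 0.532 with rapamycin and -0.957 to 0.0619 for the rapamycin-TerminaTOR difference, *H2afv* from -0.558 to 0.0739 with rapamycin, and *H2afy* from -0.356 to 0.141 with TerminaTOR. Genes of the 8 called lower were 1 with PDGF and 0 with cycloheximide without the filter, 1 with rapamycin with limma-voom or the compared groups alone, and 1 with cycloheximide on single transcripts. Leaving out a library gave 1 to 2 called higher and 1 to 2 lower with PDGF, 1 to 2 lower with rapamycin, 0 to 2 lower with cycloheximide and 1 to 2 lower for the difference. For TerminaTOR, all genes called higher were 397 in the compared groups alone and lower 169 without the filter, and leaving out a library gave 141 to 172 higher and 154 to 195 lower. The causes were not tested. Same-numbered libraries had correlations of -0.0015 to 0.0760, which does not show whether they share more than a number. The replicate block gave 2139 higher and 1794 lower with PDGF and 275 and 288 with TerminaTOR, with no change to the counts of the 8 genes. Not every library correlated best with its own number. *H2afz*, *H3f3a* and, outside cycloheximide, *H3f3b* had few reads; depth and the lack of single-transcript coding bases were not separated.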

Other observations

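General histone chaperones, which carry histones to and from chromatin, and genes that make and process replication-dependent histone messages were also counted. Of 12 of 16 chaperone genes tested, 4 rose and none fell with PDGF, 3 rose and 3 fell with rapamycin, 5 rose and 4 fell with cycloheximide and 1 rose with TerminaTOR. Of all genes 20.1% rose and 16.9% fell with PDGF, 16.3% and 16.1% with rapamycin, 21% and 19.6% with cycloheximide, and 2.35% rose with TerminaTOR. *Spty2d1*, an H3-H4 chaperone gene, rose 3.65-fold with PDGF, from 199 ± 2.14 to 727 ± 24.1 CPM (edgeR adjusted p = 2.68e-39), and was 1.16-fold higher in TerminaTOR than in control cells (edgeR adjusted p = 0.0116). *Supt6*, an elongation factor and histone chaperone gene, rose 1.73-fold with PDGF and 1.88-fold with cycloheximide. *Npm1*, nucleophosmin, was 1.44-fold higher with rapamycin and 2.18-fold lower with cycloheximide (edgeR adjusted p = 3.62e-14), and *Asf1b* was 1.77-fold lower with rapamycin.

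Of 8 of 16 histone message genes tested, 1 rose and 2 fell with PDGF, 4 rose and 1 fell with rapamycin, 3 rose and 4 fell with cycloheximide and 1 rose with TerminaTOR, beside the same shares of all genes. *Npat*, the activator of core histone genes, fell by 0.66 on the log2 scale with PDGF (edgeR adjusted p = 5.67e-10) and was 1.23-fold higher with TerminaTOR (edgeR adjusted p = 0.0203). *Slbp*, which binds the stem-loop, rose 2.52-fold with cycloheximide (edgeR adjusted p = 0.00339), from 2.68 to 7.05 CPM. Of other variants, 3 of 11 were tested. With PDGF 1 fell, with rapamycin 2 fell and with cycloheximide 2 rose (16.9%, 16.1% and 21% of all genes). None was called with TerminaTOR (4.92%). *Cenpa*, the centromeric H3, was 1.73-fold lower with PDGF. The linker variants *H1f0* and *H1fx* rose 3.44-fold and 4.29-fold with cycloheximide and were 2.18-fold and 2.61-fold lower with rapamycin. The fall of *H1fx* with rapamycin rests on 14 reads against 41 with PDGF (1.25 ± 0.669 against 3.38 ± 1.55 CPM, SD, edgeR adjusted p = 0.0162). The annotated copies *H2afy3* and *H3f3a-ps1* were not called in any of the 4 comparisons, with log2 differences of 1.55 and -0.22 with PDGF, 1.24 and 0.49 with rapamycin, -1.31 and 0.01 with cycloheximide, and -1.47 and 0.09 with TerminaTOR.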
